A study of Xenopus laevis with 12 samples.

Results

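Sox3 peaks in gene deserts are the binding regions that lay in intergenic sequence more than 50 kb from the nearest annotated transcription start site (TSS). They were chosen from the annotated ChIP-seq peak lists of 2 stages of Xenopus laevis by their annotation class and their distance to a TSS, and by no other value. The stage 9 list of blastula stem cells held 13409 of them among 124076 peaks, and the stage 11.5 list of neural plate border cells held 391 among 5300 peaks. At each stage 3 libraries came from explants that expressed Myc-tagged Sox3 and 3 from controls without the tagged protein, and the tag served to pull down Sox3 by a Myc antibody. All explants were wild-type animal pole tissue. At stage 9 the treatment was Sox3 mRNA and the controls were untreated. At stage 11.5 the treatment was Sox3, Wnt8a and Chordin mRNA and the controls received Wnt8a and Chordin mRNA, which induce the neural plate border. The peaks therefore report an added, tagged Sox3, which the study kept near the endogenous protein level, and not endogenous Sox3 itself. Explants were pooled for each ChIP. The stage 9 libraries were sequenced on a NextSeq and those of stage 11.5 on a NovaSeq, so stage and sequencer cannot be told apart. One peak list was available per stage, so no value has a spread between replicates. The depth of the libraries is unknown. The tests below compare shares of peaks, and their intervals and p-values cover counting error only. Neighbouring peaks are not independent of each other and are not replicates, so these p-values are too small.

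Sox3 belongs to the SoxB1 family of transcription factors, which bend DNA through an HMG box and usually bind beside a partner such as a POU factor. SoxB1 factors maintain pluripotency in blastula cells and neural progenitor identity later, and many of the enhancers they bind lie far from the gene they control. Genes that direct development often stand beside long stretches without other genes, called gene deserts, which can hold arrays of distal enhancers. The X. laevis genome is allotetraploid, and its chromosomes come in pairs of a long (L) and a short (S) subgenome. Each peak was listed with the transcript of the nearest TSS, which need not be the gene that an enhancer controls. The lists give transcripts by internal identifiers such as rna31818. Of the 4301 identifiers nearest to a desert peak, 0 matched the gene table used here, so the genes are not named.

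The first question was how much of Sox3 binding lay in deserts at each stage. Desert peaks made up 10.8% of all stage 9 peaks (Wilson 95% interval 10.6 to 10.98%) and 7.38% of all stage 11.5 peaks (6.70 to 8.11%). The difference was -3.43 percentage points (95% interval -4.13 to -2.67, Fisher's exact test, adjusted p = 3.87e-16). Among the intergenic peaks alone they were 26.5% of 50551 at stage 9 and 18.7% of 2094 at stage 11.5 (Fisher's exact test, adjusted p = 3.96e-16). The direction changed under alternatives that altered the number and the strength of the peaks together. With 1 peak kept per nearest transcript, the one of largest area, the desert share of all peaks was 7.59% at stage 11.5 and 4.75% at stage 9. When the stage 9 list was reduced to its 5300 strongest peaks, by score and then by area, the shares were 7.38% and 6.23%, and they did not differ past the threshold (Fisher's exact test, adjusted p = 0.0583). Because 23275 stage 9 peaks tied at the maximum score, the peaks called strongest here and below are the widest of those.

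**Figure D1:**
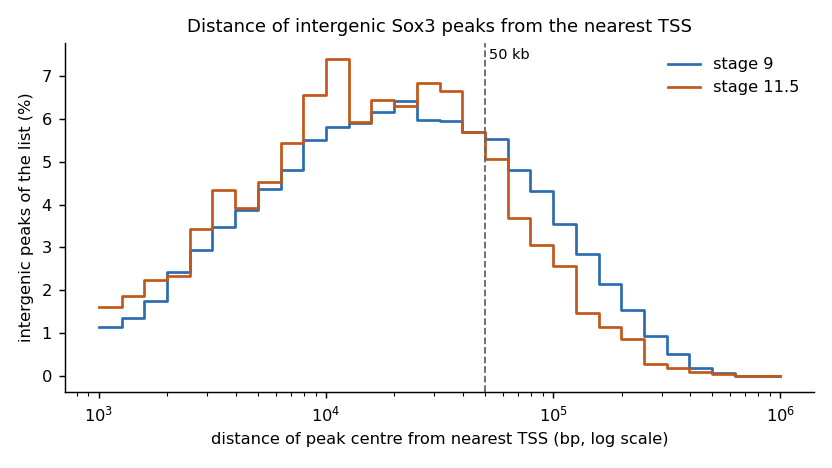
Distance of each intergenic peak's centre from the nearest TSS (x axis, bp, log scale) against the percentage of the intergenic peaks of that list in each bin (y axis), with 1 line per stage. The dashed line marks 50 kb; to its right lie 26.5% of the stage 9 and 18.7% of the stage 11.5 intergenic peaks.

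Desert peaks at stage 9 lay at a median of 92089 bp from the TSS, with quartiles of 66434 and 142646 bp. At stage 11.5 the median was 81073 bp, with quartiles of 61008 and 117168 bp. Peaks between 50 and 100 kb were the most frequent, with 7435 at stage 9 and 251 at stage 11.5. Beyond 300 kb there were 491 at stage 9 and 7 at stage 11.5. The desert peaks were upstream of the nearest TSS in 54.3% of cases at stage 9 (53.4 to 55.1%) and in 60.6% at stage 11.5 (55.7 to 65.3%), against 65.1% and 63.7% of the other intergenic peaks. These positions are descriptions, since distance chose the peaks.

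The stage 9 peak farthest from any TSS lay 688495 bp upstream of rna97287 on chromosome 1L, at 213818988 to 213819050, and was 63 bp wide with a score of 400. The next lay 672225 bp upstream of rna25597, at 213694063 to 213694215 on the same chromosome, and reached the maximum score of 1000. The score is the mean signal per base that the peak caller gave, multiplied by 1000 and capped at 1000. The remaining 3 of the 5 farthest stage 9 peaks were also assigned to rna97287, at 646766, 628447 and 622212 bp. All 5 thus shared a single desert. None of them overlapped a stage 11.5 peak.

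The farthest peak at stage 11.5 lay 502719 bp downstream of rna45563 on chromosome 7S (68822685 to 68822805). It was 121 bp wide, reached the maximum score, and overlapped a stage 9 peak of 106 bp and score 645. The next 4 lay 468650 bp upstream of rna11529 on 2L, 466860 bp downstream of rna73858 on 1L, 367852 bp upstream of rna73529 on 8S and 334866 bp upstream of rna63242 on 6S. Of the 5 farthest stage 11.5 peaks, 4 overlapped a stage 9 peak, the exception being the one beside rna11529. Unlike those of stage 9, they lay on 5 different chromosomes.

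At the limit itself, the 3 stage 9 peaks just inside the desert class lay 50005, 50013 and 50022 bp from the TSS and the 3 just outside 50000, 49997 and 49990 bp. Their scores were 273, 573 and 1000 inside and 1000, 290 and 594 outside. The corresponding stage 11.5 peaks lay at 50038, 50047 and 50097 bp, with scores of 392, 227 and 71, and at 49991, 49939 and 49854 bp, with scores of 408, 316 and 408.

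Desert peaks were then counted per nearest transcript. At stage 9 they were assigned to 4281 transcripts, with a mean of 3.13 peaks, a median of 2 and a maximum of 34. At stage 11.5 they were assigned to 315 transcripts, with a mean of 1.24, a median of 1 and a maximum of 6. A single desert peak was listed for 262 of the 315 stage 11.5 transcripts (83.2%) and for 1499 of the 4281 stage 9 transcripts (35.02%), a difference of 48.2 percentage points (95% interval 43.4 to 52.1, Fisher's exact test, adjusted p = 1.57e-63). With the stage 9 list reduced to its 5300 strongest peaks, which changes both its length and the strength of its peaks, the share was 89.2% at stage 9 (Fisher's exact test, adjusted p = 0.0858). At stage 9, 341 transcripts had 8 or more desert peaks and together held 3667 of them (27.3%). No stage 11.5 transcript had as many.

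**Figure D2:**
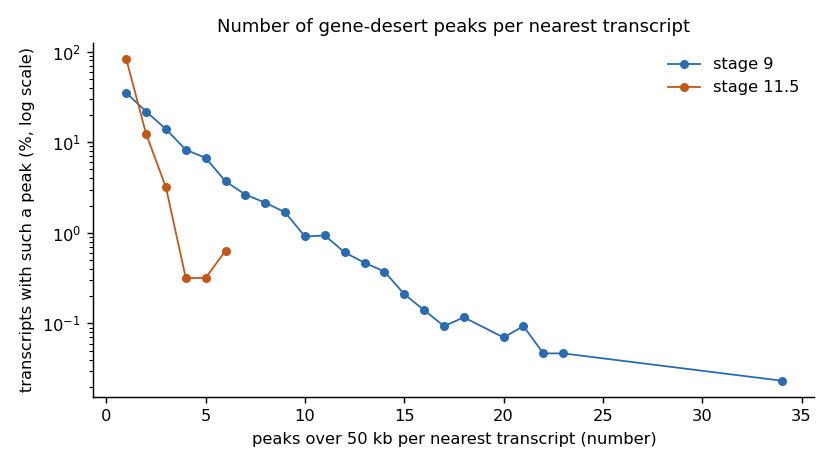
Number of desert peaks per nearest transcript (x axis) against the percentage of the transcripts with at least 1 such peak (y axis, log scale), with points for each number that occurred and 1 line per stage. Stage 9 (4281 transcripts) reaches 34 peaks and stage 11.5 (315 transcripts) 6 peaks.

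The desert peaks of a transcript lay upstream only for 2138 stage 9 transcripts, downstream only for 1899 and on both sides for 244. At stage 11.5 these numbers were 183, 130 and 2. For transcripts with several desert peaks on 1 side, the peaks spanned a median of 34496 bp at stage 9 (n = 2538, quartiles 12526 and 81160 bp) and 5031 bp at stage 11.5 (n = 51, quartiles 1414 and 21497 bp). The span was at most 10 kb for 32 of the 51 stage 11.5 transcripts (62.7%) and for 542 of the 2538 stage 9 transcripts (21.4%). More peaks can give a longer span, and 3 or more desert peaks were listed for 1849 stage 9 and 14 stage 11.5 transcripts. Neither the number of peaks nor the list length was held equal, so the contrast in span follows in part from them.

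The largest set at stage 9 was that of rna31818 on chromosome 4L, whose 34 peaks all lay upstream, between 55243 and 407494 bp from the TSS (68293178 to 68645649). Their median width was 317 bp, 6 reached the maximum score and 2 overlapped a stage 11.5 peak. Both of those stage 11.5 peaks were small, at 91 bp with a score of 335 and at 140 bp with a score of 156, whereas the stage 9 peaks over them were 339 and 585 bp wide with scores of 631 and 701. The next sets were the 23 peaks of rna97717 on 4S and the 23 of rna23256 on 6S. Those of rna97717 spanned 544469 bp over both sides of the TSS. Those of rna23256 all lay upstream, with a span of 263282 bp. The 22 peaks of rna84448 on 3L spanned 717139 bp over both sides. The 22 of rna69073, also on 3L and all upstream, spanned 335726 bp. Of these 4 sets, 3 had no peak overlapped at stage 11.5, and that of rna23256 had 2.

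The largest sets at stage 11.5 were those of rna42846 on chromosome 9_10L and of rna62570 on 9_10S, with 6 desert peaks each, followed by rna70953 on 9_10L with 5, rna71833 on 5S with 4 and rna37874 on 5S with 3. The first 3 lay wholly upstream, and those of rna71833 and rna37874 downstream. The peaks of rna62570 spanned 2980 bp, those of rna71833 3480 bp, those of rna70953 3890 bp and those of rna42846 29476 bp. The 3 peaks of rna37874 were different, with a span of 202000 bp.

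All 3 stage 11.5 peaks of rna37874 were bound at stage 9 as well. They were 124, 191 and 237 bp wide with scores of 370, 379 and 571, at 91115, 291707 and 292935 bp from the TSS. The stage 9 peaks over them were 492, 353 and 117 bp wide with scores of 1000, 508 and 594. Stage 9 had 4 further desert peaks, at 86760, 106141, 137958 and 239261 bp, that no stage 11.5 peak overlapped.

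To see how many separate deserts carried these peaks, stretches free of a TSS were rebuilt from the distances, since a peak at a given distance has no annotated TSS nearer than that on either side. These stretches are lower bounds on the distance between neighbouring TSSs, and they can hold the body of a gene whose TSS lies at an end. Intervals that did not meet were counted apart, so the same desert can count more than once. None of the 26935 TSS positions that several peaks fixed fell inside a stretch. Both come from the same distances to the nearest TSS, so this outcome was fixed in advance and checks the rebuilding only. The desert peaks fell into 2980 such stretches with a median length of 192972 bp (quartiles 139483 and 294010 bp). Stage 9 peaks occurred in 2965 of them and stage 11.5 peaks in 299, and 284 held both. Stretches with a stage 11.5 peak had a median length of 254005 bp and those with stage 9 peaks only 185703 bp. Since lengths were rebuilt from the peaks, stretches with more peaks can come out longer, here and in the length classes below.

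Among stretches of 100 to 200 kb, 94 of 1572 held a stage 11.5 desert peak (5.98%, 4.91 to 7.26%). The share was 11.8% of 688 stretches of 200 to 300 kb (9.57 to 14.4%), 15.4% of 508 stretches of 300 to 500 kb (12.5 to 18.7%) and 22.4% of 205 longer ones (17.3 to 28.6%). The median number of stage 9 desert peaks was 2, 4, 7 and 13 in the same classes. Per Mb of sequence more than 50 kb from both ends, the number of desert peaks went the other way, with 49.4, 32.0, 26.8 and 24.96 at stage 9 and 1.86, 1.05, 0.644 and 0.546 at stage 11.5. Stretches without a desert peak are not among those counted, so each short stretch adds at least 1 peak to little sequence. The 1572 stretches of 100 to 200 kb held 70.8 Mb of such sequence together. The fall per Mb with length thus follows in part from how stretches were counted. The longest stretch, of 1485591 bp on 1L, held 25 stage 9 desert peaks and 1 stage 11.5 desert peak, and all of the 5 farthest stage 9 peaks lay within it. The fullest at stage 9 was the stretch on 4L beside rna31818, of 904483 bp, with 44 stage 9 and 2 stage 11.5 desert peaks.

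A stretch of 781738 bp on 3L held 42 stage 9 desert peaks and 0 of stage 11.5, and one of 1219819 bp on 8S held 39 and 0. The fullest at stage 11.5 was a stretch of 179943 bp on 9_10L (77021311 to 77201253). It held the 6 desert peaks of rna42846 and the 5 of rna70953, and 5 stage 9 desert peaks. Both transcripts have this stretch upstream of their TSS.

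Close grouping was measured as the share of peaks with a neighbour of the same list within 10 kb. At stage 9 it was 57.0% of the desert peaks and 71.6% of the other intergenic peaks, a difference of -14.6 percentage points (95% interval -15.6 to -13.7, Fisher's exact test, adjusted p = 3.97e-204). At stage 11.5 it was 25.1% of the desert peaks and 32.4% of the other intergenic peaks, a difference of -7.35 points (-12.0 to -2.33, Fisher's exact test, adjusted p = 0.00622). Desert peaks thus less often had a close neighbour than other intergenic peaks in both lists. Neighbours of every annotation class counted, and a desert peak cannot have one at a promoter within 10 kb. The contrast therefore follows in part from the distance that chose the peaks. Among the 5300 strongest stage 9 peaks the difference was -4.10 points and did not pass the threshold (Fisher's exact test, adjusted p = 0.157).

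Counting only other desert peaks as neighbours, 55.0% of the stage 9 and 23.8% of the stage 11.5 desert peaks had one within 10 kb (difference -31.3 points, 95% interval -35.3 to -26.7, Fisher's exact test, adjusted p = 1.69e-34). With the 5300 strongest stage 9 peaks alone the share was 13.9% at stage 9, and stage 11.5 was higher by 9.85 points (Fisher's exact test, adjusted p = 0.00503). The 391 stage 11.5 desert peaks formed 298 single peaks and 38 clusters when gaps of at most 10 kb were linked, and 10 clusters had 3 or more peaks. Stage 9 had 6029 single peaks and 2765 clusters, of which 1015 had 3 or more peaks and 193 had 5 or more. The clusters spanned a median of 5739 bp at stage 9 and 2092 bp at stage 11.5. Clusters with more peaks can span more, and list length was not held equal for these spans.

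The stage 9 cluster with the most peaks had 14 in 46549 bp on 2L (117178669 to 117225217), 126147 to 161550 bp from a TSS, and 7 of them reached the maximum score. The next had 13 peaks in 47022 bp beside rna38479 on 6S, 13 in 49321 bp within the set of rna31818 on 4L, 12 in 52193 bp beside rna15 on 6S and 10 in 12743 bp beside rna73220 on 3L. The last was the most compact, with peaks over 28.7% of its length, against 6.85 to 12.1% in the other 4. Each of the 5 clusters had at most 2 peaks that overlapped the stage 11.5 list.

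The clusters with the most peaks at stage 11.5 were the 6 peaks of rna62570, the 5 of rna70953 and the 4 of rna71833, then 4 peaks in 11334 bp on 5L (119328218 to 119339551) and 3 in 1255 bp beside rna58013 on 1S. In the cluster of rna62570 the peaks covered 44.7% of its length. In the cluster on 5L none of the peaks reached the maximum score and 3 of the 4 overlapped stage 9 peaks.

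The 4 transcripts with 4 or more stage 11.5 desert peaks stood apart in their scores. Of their 21 desert peaks, 20 reached the maximum score, against 72 of the other 370 stage 11.5 desert peaks. Whether these regions hold repeated sequence or assembly gaps was not tested, since their sequence was not analysed here. Beside rna62570 the array ran across the 50 kb limit, with 14 intergenic stage 11.5 peaks in 10760 bp (44283586 to 44294345), of which 6 were desert peaks and 13 reached the maximum score. Their centres lay 290 to 2974 bp apart, with a median of 514.5 bp. The 6 desert peaks there were 465, 126, 186, 100, 82 and 374 bp wide. The stage 9 list had 9 peaks in the same span, 5 of them at the maximum score, and 7 of the 14 stage 11.5 peaks overlapped one of them.

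The 6 peaks of rna42846 formed groups of 3 at each end of their span, at 52781, 53773 and 54130 bp and at 81070, 81719 and 82180 bp upstream, and all reached the maximum score. One peak of each group, 381 and 228 bp wide, overlapped a stage 9 peak, and the other 4 were 67 to 110 bp wide and did not. The 5 peaks of rna70953 lay 69682 to 73395 bp upstream, all at the maximum score, and only the one of 204 bp overlapped a stage 9 peak, which was 344 bp wide with a score of 895. The 4 peaks of rna71833 had scores of 453, 1000, 1000 and 1000 and overlapped none. Stage 9 peaks flanked them on both sides, at 52711 and 60563 bp from the TSS.

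**Figure D3:**
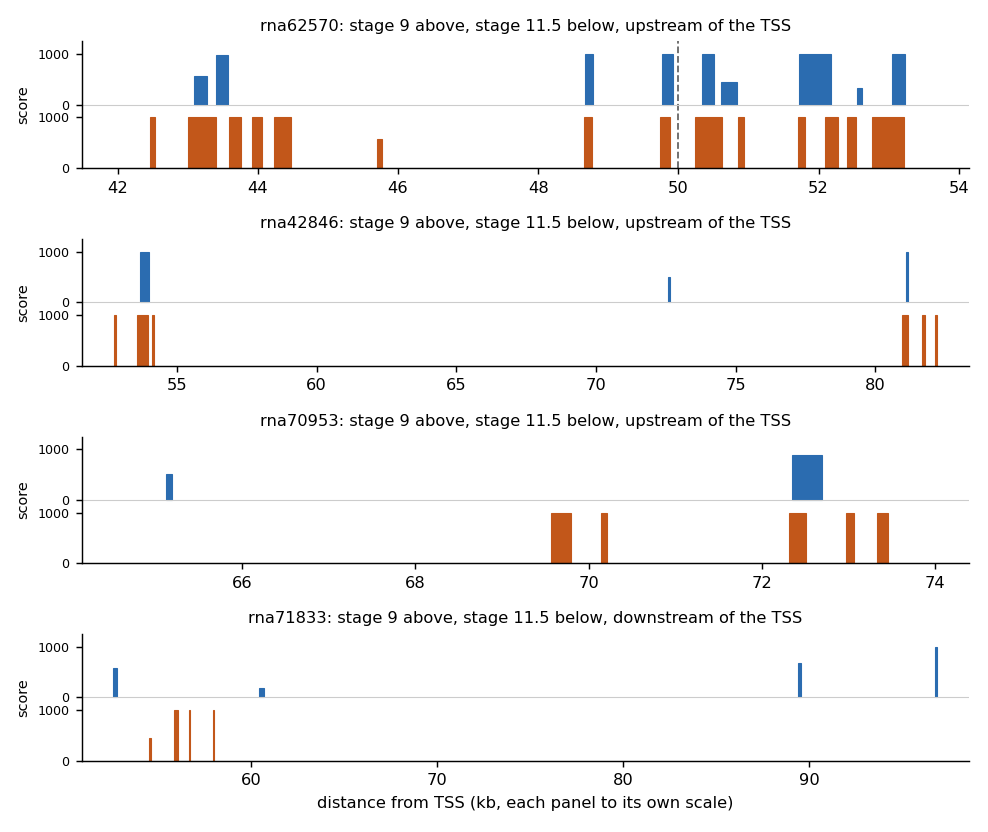
Peaks of the 4 transcripts with 4 or more stage 11.5 desert peaks, more than 40 kb from the TSS on the side of their stage 11.5 peaks. They are shown by distance from the TSS (x axis, kb, a scale of its own in each panel), stage 9 above and stage 11.5 below. Bars are as wide as the peak and as high as its score (y axis, 0 to 1000). A stage 9 desert peak of rna71833 on the other side, 55983 bp upstream, is not drawn. The dashed line marks 50 kb; 20 of the 21 stage 11.5 desert peaks reach the maximum score.

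The next question was how many desert peaks were shared by the stages. At stage 11.5, 238 of the 391 desert peaks overlapped a stage 9 peak by 1 bp or more (60.9%, 55.9 to 65.6%), against 65.2% of all stage 11.5 peaks. At stage 9, 231 of the 13409 desert peaks overlapped a stage 11.5 peak (1.72%, 1.52 to 1.96%), against 2.72% of all stage 9 peaks. The stage 9 desert peaks were overlapped less often than the other intergenic peaks of that list, at 2.93% (difference -1.21 points, 95% interval -1.48 to -0.919, Fisher's exact test, adjusted p = 1.42e-14). This difference did not pass the threshold with 1 peak per transcript, at -0.663 points (Fisher's exact test, adjusted p = 0.0583), or among the 5300 strongest stage 9 peaks, at -0.388 points (Fisher's exact test, adjusted p = 1). The value with 1 peak per transcript follows in part from keeping the largest peak, which favours the group with more peaks per transcript. The stage 9 overlap shares are bounded by the stage 11.5 counts, 391 desert and 1703 other intergenic peaks. They are thus tied to the lower desert share at stage 11.5 and are not a separate result. The stage 11.5 desert peaks differed from the other intergenic peaks of their list, at 65.4%, by -4.49 points, with an interval of -9.89 to 0.752 that includes 0 (Fisher's exact test, adjusted p = 0.122). When only peaks covered over 50% or more of their width counted, this difference was -6.04 points and passed the threshold (Fisher's exact test, adjusted p = 0.0350).

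The shared fraction at stage 9 was lower in each class farther from the TSS. It was 3.08% up to 10 kb, 2.81% from 10 to 50 kb, 2.02% from 50 to 100 kb, 1.48% from 100 to 200 kb and 1.04% from 200 to 300 kb. Beyond 300 kb it was 1.02%, or 5 of 491 peaks. These stage 9 fractions also depend on how many stage 11.5 peaks each class held. The stage 11.5 fractions were 66.2, 64.7, 62.2 and 60.6% in the classes up to 200 kb. From 200 to 300 kb 12 of 24 peaks were shared, and the interval of that fraction, 31.4 to 68.6%, included the others.

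**Figure D4:**
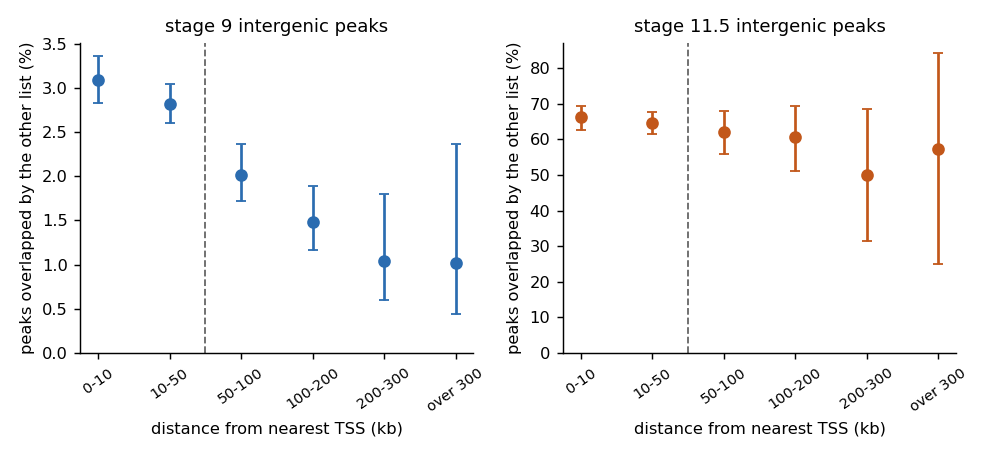
Percentage of intergenic peaks overlapped by a peak of the other list (y axis, from 0, a scale of its own in each panel) by distance from the nearest TSS (x axis, kb) for stage 9 (left) and stage 11.5 (right), with Wilson 95% intervals as bars. Desert peaks lie to the right of the dashed line; at stage 9 the fraction goes from 3.08% up to 10 kb to 1.04% at 200 to 300 kb.

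Overlap at stage 9 also went with peak area, which is the score multiplied by the width and divided by 1000. Width enters the area, and wide peaks meet the overlap rule more easily, so this follows in part from the rule. In the fifth of intergenic peaks with the smallest area, 0.146% of the stage 9 desert peaks were overlapped, and in the fifth with the largest area 7.55% (6.51 to 8.74%). The other intergenic peaks had 0.258% and 10.2% (9.56 to 10.9%) in the same classes. The difference between desert and other intergenic peaks was therefore present in the fifth of largest area. That class has no upper limit, so peak area was not held equal within it. The difference was nearly absent when the stage 9 list was cut to its strongest peaks, as many as at stage 11.5. Of those, 21.2% of 330 desert peaks and 21.6% of 1750 other intergenic peaks were overlapped. When both lists were limited to an area of 200 or more, which left 519 stage 11.5 peaks, all overlap shares were lower, with 0.413% of the desert and 0.777% of the other intergenic peaks, and the difference of -0.364 points did not pass the threshold (Fisher's exact test, adjusted p = 0.0921).

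The 231 stage 9 and 238 stage 11.5 shared desert peaks formed 241 overlapping pairs, and in each pair both peaks belonged to the desert class. The stage 9 peak was the wider in 211 of the 241 pairs (87.6%), with medians of 546 bp at stage 9 and 183 bp at stage 11.5. It had the higher score in 199 pairs and an equal score in 25. The maximum score was reached by the stage 9 peak in 68.9% of pairs and by the stage 11.5 peak in 14.1%. The shared desert peaks of stage 9 were thus unlike the other desert peaks of their list. Those without a partner had a median width of 207 bp and a median score of 501. Wide peaks meet the 1 bp rule more easily, so the contrast in width follows in part from that rule. All stage 9 peaks had a median width of 227 bp, against 134.5 bp for all stage 11.5 peaks. Their median scores were 512 and 395.5. Pairs of peaks outside the deserts were not compared, so these traits are not known to be particular to desert pairs.

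Desert peaks of stage 11.5 without a stage 9 partner were narrower but scored higher. Their median width was 91 bp, against 183 bp for those with a partner, and their median score was 555 against 327.5. Their median area was 47.5 against 50.8. Peaks below an area of 20 were not called, so a narrow peak needed a higher score to be listed. Wide peaks also meet the overlap rule more easily, so both contrasts follow in part from these rules. The maximum score was reached by 60 of these 153 peaks (39.2%) and by 32 of the 238 shared ones (13.4%). Of the 60, 13 belonged to the 4 dense arrays. Outside the arrays 47 of 139 (33.8%) reached it. Of all 5300 stage 11.5 peaks 19.9% were at the maximum score. Peaks outside the deserts were not split by partner, so the contrasts are not known to be particular to desert peaks. From these 153 peaks the nearest stage 9 peak lay at a median of 11014 bp, within 1 kb for 24 of the 153 and beyond 50 kb for 14. Gaps between neighbouring stage 9 desert peaks had a median of 21872 bp. A gap is the full interval between desert peaks and the distance runs to the nearest stage 9 peak, so the values are not directly comparable. Other positions were not compared.

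Sharing was also counted by transcript, a coarser unit than the peak. Of the 315 transcripts with a stage 11.5 desert peak, 295 (93.7%) also had a stage 9 desert peak, which was 6.89% of the 4281 stage 9 transcripts, and for 202 of them the peaks themselves overlapped. Of the 1389 transcripts with another intergenic peak at stage 11.5, 85.1% had one at stage 9, and of all 3835 transcripts with a stage 11.5 peak 91.0% had a stage 9 peak. Stage 9 had more desert peaks than stage 11.5 for 250 of the 295, as many for 38 and fewer for 7. Stage 11.5 desert peaks were found for 2.60% of the transcripts with 1 stage 9 desert peak (1.91 to 3.54%) and 5.14% of those with 2. The share was 8.75% for those with 3 to 7 and 22.3% for those with 8 or more (18.2 to 27.0%). Longer stretches held more stage 9 desert peaks and more often a stage 11.5 one, and length was not held equal here.

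Among the 10 shared transcripts with the most stage 11.5 desert peaks were the 5 described above, and rna88326 on 2L, rna56941 on 1L, rna65309 on 2S, rna40017 on 3S and rna8620 on 5S with 3 each. At stage 9 these had 18, 15, 13, 5 and 5 desert peaks. Stage 11.5 exceeded stage 9 for rna62570, with 6 against 5, for rna42846, with 6 against 3, and for rna70953, with 5 against 2. The 3 stage 11.5 peaks of rna56941 all overlapped stage 9 peaks, and at least 1 did for each of the other 4.

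Peaks also differed in size between the stages. Desert peaks had a median width of 210 bp at stage 9 (quartiles 125 and 338 bp) and 133 bp at stage 11.5 (85 and 229 bp). Wider than 200 bp were 52.6% at stage 9 and 30.9% at stage 11.5, a difference of -21.6 points (95% interval -26.1 to -16.8, Fisher's exact test, adjusted p = 8.94e-17). Within stage 9 they were narrower than the other intergenic peaks, of which 56.3% exceeded 200 bp (difference -3.79 points, Fisher's exact test, adjusted p = 8.53e-14), but with 1 peak per transcript, the one of largest area, the desert peaks were the wider by 3.94 points. Keeping the largest peak favours the group with more peaks per transcript. Stage 9 had 13409 desert peaks for 4281 transcripts and 37142 other intergenic peaks for 18861. At stage 11.5 the other intergenic peaks had 31.2%, and the difference of -0.234 points had an interval of -5.15 to 4.98 (Fisher's exact test, adjusted p = 0.952).

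The median score of the desert peaks was 507 at stage 9 and 390 at stage 11.5. The maximum score was reached by 2300 stage 9 desert peaks (17.2%, 16.5 to 17.8%), against 18.8% of all stage 9 peaks, and by 92 stage 11.5 desert peaks (23.5%, 19.6 to 28.0%), against 19.9% of all stage 11.5 peaks. The stages differed by 6.38 points (95% interval 2.39 to 10.9, Fisher's exact test, adjusted p = 0.00272). Without the 4 transcripts of the dense arrays, an alternative chosen after seeing the data, the share at stage 11.5 was 19.5%. The share had to fall, since 20 of their 21 stage 11.5 desert peaks were at the maximum. The stage difference was then 2.33 points and did not pass the threshold (Fisher's exact test, adjusted p = 0.308). With 1 peak per transcript it was -10.6 points and at a limit of 100 kb -0.0148 points. At stage 9 the desert peaks reached the maximum less often than the other intergenic peaks, at 20.1% (difference -2.95 points, Fisher's exact test, adjusted p = 1.41e-13), and with 1 peak per transcript more often, by 3.15 points. Both values with 1 peak per transcript again favour the group with more peaks per transcript. At stage 11.5 the difference was 2.63 points with an interval of -1.79 to 7.45 (Fisher's exact test, adjusted p = 0.310).

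The desert peaks of largest area at stage 9 all had the maximum score. The widest covered 1802 bp on 4S (26972657 to 26974458), 106043 bp upstream of rna68563, and was not overlapped at stage 11.5. The others were 1606 bp on 5S beside rna58897, 1461 bp on 6L beside rna44467, 1419 bp on 5L beside gene34485_t and 1303 bp on 9_10S beside rna58664, and the first 3 of these 4 were overlapped at stage 11.5. The region on 5L was also among the 5 of largest area at stage 11.5. There the 2 peaks began at the same base, 94614850, ran to 94616268 at stage 9 and to 94615596 at stage 11.5, and both reached the maximum score, with centres 55121 and 55457 bp upstream of gene34485_t.

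The widest desert peak at stage 11.5 covered 1105 bp on 6S (43373446 to 43374550), 56291 bp upstream of rna60104. The first stage 9 peak inside it was 115 bp wide, and whether it held further stage 9 peaks is not given here. The remaining 3 of the 5 were 701 bp beside rna60994 on 9_10S, 708 bp beside rna97225 on 9_10L with a score of 867, and the 465 bp peak of the rna62570 array. All 5 overlapped a stage 9 peak.

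Desert peaks were found on all 18 assembled chromosomes at both stages. They made up the largest share of a chromosome's stage 9 peaks on 6S, with 16.9% (16.0 to 17.9%), and on 5S, with 15.4%, and the smallest on 9_10L, with 6.35% (5.76 to 6.998%). The stage 11.5 share was highest on 5S, with 14.9% (10.9 to 20.1%), and lowest on 8L, with 6 of 291 peaks or 2.06% (0.948 to 4.42%). Unplaced scaffolds held 415 stage 9 and 16 stage 11.5 desert peaks.

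**Figure D5:**
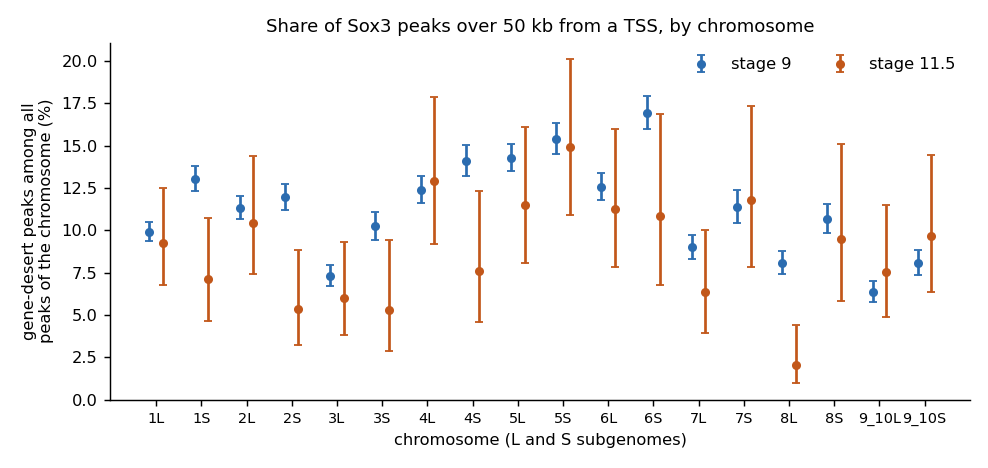
Desert peaks as a percentage of all peaks of a chromosome (y axis, from 0) for the 18 assembled chromosomes (x axis), with Wilson 95% intervals as bars and 1 colour per stage. Stage 9 goes from 6.35% on 9_10L to 16.9% on 6S, and stage 11.5 from 2.06% on 8L to 14.9% on 5S.

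Stage 9 desert peaks were divided about equally between the subgenomes, with 6507 on L and 6487 on S chromosomes. The S share was 49.9%, against 46.2% of the other intergenic peaks (difference 3.68 points, 95% interval 2.68 to 4.69, Fisher's exact test, adjusted p = 1.25e-12). At stage 11.5 there were 211 on L and 164 on S chromosomes, an S share of 43.7%, against 45.9% of the other intergenic peaks (difference -2.15 points, -7.68 to 3.49, Fisher's exact test, adjusted p = 0.518). Between the stages the S share of desert peaks differed by -6.19 points (-11.2 to -1.06, Fisher's exact test, adjusted p = 0.0241), but by -0.677 points against the 5300 strongest stage 9 peaks (Fisher's exact test, adjusted p = 1).

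The chromosome pairs differed among themselves. The S chromosome had more stage 9 desert peaks than its L partner in 5 of 9 pairs, with ratios between 0.897 and 1.13. At stage 11.5 it had more in 4 of 9 pairs. On pairs 1, 2, 3, 4 and 6 the stage 11.5 ratio was 0.452 to 0.615, with 37 desert peaks on 1L and 20 on 1S for example, and on pairs 5, 7, 8 and 9_10 it was 1.05 to 2.50, with 6 on 8L and 15 on 8S. These small counts were not tested pair by pair.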

How the data were processed

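ChIP-seq peak lists of Sox3 were analysed for stage 9 blastula stem cells and stage 11.5 neural plate border cells, with 3 Sox3 and 3 control libraries each (12 in all). Explants were crosslinked for 15 min and chromatin was tagmented with Tn5 for 40 min. The authors trimmed reads with fastp, aligned them to the X. laevis genome (9.2) with bowtie2, called peaks with Genrich (minimum area 20, mitochondrial sequence excluded) and annotated them with HOMER. SAMtools and Picard are also in the submitters' processing notes, and versions are not given in the sources used here. The deposited peak score is a whole number capped at 1000, and the deposited distance runs in bp from peak centre to nearest TSS. Its sign is negative upstream. The list's header names all replicates at stage 9 and not at stage 11.5, so which libraries entered the second call is not certain. No read counts are in the lists, so the depth per sample is unknown.

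Widths, areas, overlaps, gaps and clusters were computed in 1-based coordinates of the 9.2 build (pandas 2.3.3 and numpy 2.4.6 under Python 3.11.15), and plotted with matplotlib 3.10.9. Fisher's exact test (two-sided, scipy 1.17.1) compared shares, adjusted by Benjamini-Hochberg over 17 such tests (threshold 0.05), with Wilson intervals for shares and Newcombe intervals for differences, at 95%. Odds ratios of the stages were compared with statsmodels 0.14.6. Functions were tested on simulated data. TSS-free stretches join the intervals around intergenic peaks, less 5 bp at each end, and TSS positions were rebuilt to within 4 bp. Named were, per stage, the 5 transcripts with most desert peaks, the 5 clusters with most peaks, and the 5 farthest and 5 largest peaks, and across stages the 10 shared transcripts with most stage 11.5 desert peaks. The fullest stretches, peak pairs, area classes and the 4 dense arrays were chosen for description after their values were seen. The members and lists were chosen with earlier results of these data known. Alternatives covered the distance limit, scaffolds, minimum area, peaks per transcript, list length, overlap rule, linking distance and width limit. Peak sequences and motifs were not analysed here.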

Additional observations from a re-analysis of the deposited data

Results flagged for a closer look

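The contrast between desert and other intergenic peaks was compared between the stages for 5 measures, after the results of each stage had been seen, with a Breslow-Day chi-square test of equal odds ratios. The odds of overlap with the other stage were 0.581 of those of other intergenic peaks at stage 9 and 0.825 at stage 11.5 (Breslow-Day chi-square test, adjusted p = 0.0260). The overlap counts of the stages come from the same pairs of peaks and are not independent, and the stage 9 ratio also reflects the lower desert share at stage 11.5. The odds of reaching the maximum score were 0.823 at stage 9 and 1.16 at stage 11.5 (Breslow-Day chi-square test, adjusted p = 0.0260), and those of having a neighbour within 10 kb were 0.526 and 0.697 (Breslow-Day chi-square test, adjusted p = 0.0475).

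Without the 4 transcripts with 4 or more stage 11.5 desert peaks, the odds ratios of the maximum score were 0.821 and 0.932 (Breslow-Day chi-square test, adjusted p = 0.488) and those of a neighbour within 10 kb 0.525 and 0.556 (Breslow-Day chi-square test, adjusted p = 0.681). Those transcripts were picked after the data were seen. Their stage 11.5 desert peaks lay close together and 20 of 21 reached the maximum score, so both stage 11.5 ratios had to fall. Without them the overlap ratios were 0.565 and 0.876 (Breslow-Day chi-square test, adjusted p = 0.00856). The contrasts of width and of the S share did not differ past the threshold between the stages (Breslow-Day chi-square test, adjusted p = 0.247 and 0.0580).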

How the results depend on the processing

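No paired analysis was possible because the lists, 1 per stage, hold no values per replicate, and for the same reason no replicate could be left out. Each of the 17 compared shares was computed again under the alternatives that bear on it, 111 values in all. Direction and side of the threshold were kept in 70, 19 no longer passed the threshold, 6 newly passed it and 16 turned direction. All values are differences in percentage points, with the order of the comparison as in the report.

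With 1 peak per nearest transcript, the stage difference was 2.84 in the desert share of all peaks, 4.41 in that of intergenic peaks, -10.6 in the share at the maximum score and -6.13 in the S share. Against other intergenic peaks, stage 9 desert peaks then differed by -0.663 in overlap, 3.15 at the maximum score and 3.94 in width, and stage 11.5 desert peaks by -6.69 in overlap (newly past the threshold) and -0.0096 in neighbours, where the removal of a transcript's other peaks also removes the neighbours counted. The -10.6, -0.663, 3.15 and 3.94 follow in part from keeping the largest peak, which favours the group with more peaks per transcript. The 2.84 and 4.41 follow in part from the same rule, which removed more stage 9 than stage 11.5 peaks. With only the 5300 strongest stage 9 peaks, which alters number and strength together, the stage difference was 1.15 and 2.81 in the desert shares, -76.5 at the maximum score, -0.677 in the S share, -6.01 in single-peak transcripts and 9.85 in desert neighbours. Stage 9 contrasts were then -0.388 in overlap, -4.1 in neighbours, 1.54 in the S share, and 0 both at the maximum score and in width. The last 2 values and the -76.5 follow from the choice of stage 9 peaks by score and area, by which all those kept reach the maximum score and exceed 200 bp.

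A minimum area of 200 left 36 stage 11.5 desert peaks. Stage differences were then -2.57 and -4.93 in the desert shares, -14.3 in the S share, 18.8 in single-peak transcripts, -7.07 in desert neighbours and 0.165 in width. Stage 9 contrasts were -0.364 in overlap, -1.46 at the maximum score and -0.0481 in width, and stage 11.5 contrasts 1.25 in width and -0.903 in neighbours. The 3 width values follow from the area limit, which needs a width of at least 200 bp.

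At a limit of 100 kb, the stage difference at the maximum score was -0.0148, and stage 11.5 contrasts were -4.56 at the maximum score and -10.4 in width (newly past the threshold). On assembled chromosomes only, stage 11.5 contrasts newly passed the threshold, at -5.58 in overlap and 4.9 at the maximum score. The stage 11.5 overlap contrast also passed it with 50% of the peak covered, at -6.04, and within 1 kb of the other list, at -5.75. A width limit of 300 bp gave a stage 11.5 width contrast of 0.485. Linking over 50 kb changed no call. Without the 4 transcripts with 4 or more stage 11.5 desert peaks, an alternative chosen after seeing the data, the stage difference at the maximum score was 2.33 and the stage 11.5 contrast -1.13. Where no construction is named, the cause was not tested. Unknown depth and single lists limit every comparison between the stages.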
